A study of Bos taurus with 2 samples.

Results

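The genes of the TGF-beta, BMP and activin pathway were compared between crossbred and Zebu bull testis on a bovine microarray. The members were the genes whose name on the array begins with BMP, GDF, ACVR, SMAD or LTBP, or with TGFB followed by 1, 2, 3 or R, together with INHBA, NOG, FST and CHRD. By this rule 51 of 32429 gene names belonged to the pathway, with 98 probes of 60 bases on 101 spots, and all 51 names were symbols in the RefSeq gene table of cattle. The crossbred group was Holstein Friesian crosses and the Zebu group was the Tharparkar breed, adult males aged 24 months, from which a testis was taken by castration under sedation in both groups. Testis RNA of 3 bulls per group was pooled in equal quantity, labelled with Cy3 and hybridized to 1 array per group. With 1 pool on 1 array per group, no difference could be checked against replicates or tested, and precision is limited by the number of arrays.

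TGF-beta, activins, BMPs and GDFs are secreted as dimers that bind a complex of type I and type II receptor kinases on the cell surface. The type II receptor phosphorylates the type I receptor, which in turn phosphorylates SMAD2 and SMAD3 in the TGF-beta and activin branch, or SMAD1, SMAD5 and SMAD9 in the BMP branch, and these enter the nucleus with SMAD4. In the testis, Sertoli cells are known as a source of activins, inhibins and anti-Müllerian hormone, and spermatogonia and Sertoli cells respond to BMPs and activins.

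The scanner software measured an intensity for each spot. Every level here is the log2 of this background-subtracted signal, averaged over the spots of a probe, minus the 75th percentile of its array, and every difference is crossbred minus Zebu. The probe of a gene with the highest mean signal stood for the gene, which counted as detected if this probe was well above background in at least 1 of the pools. A difference of 1.5 or more in size (2.83-fold) was called, which reads the 1.5-fold limit of the study as a limit on its log2 expression values, as its methods can be read but do not state. Over 5960 probes with several spots, the SD between spots was 0.29 (crossbred array) and 0.18 (Zebu array), hence 0.34 for a difference, and it covers spotting and scanning only. On the crossbred array 72.0% of the non-control spots, and on the Zebu array 74.3%, were well above background. Testis transcripts were present in both pools, with the protamine gene PRM1 at 7.43 on the crossbred and 7.07 on the Zebu array and the Leydig cell gene INSL3 at 6.25 and 6.69.

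The probes on which the results below turn are shown first, as the array lists them. The sequence of the only ACVR1C probe is given because this gene had the highest difference of the members, and it lies on chromosome 2 from 40233811 to 40233870 (HGSC Btau_3.1, the build of the array annotation, here and below). The SMAD3 and BMP7 pairs and the TGFB3 probe are given because probes of the same gene differed in their result. The BMP4 pair is given because the probes share 44 bases, which are in capitals and begin 16 bases into the first probe.
ACVR1C, A_73_103101: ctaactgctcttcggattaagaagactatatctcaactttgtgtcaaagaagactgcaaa
SMAD3, A_73_120129: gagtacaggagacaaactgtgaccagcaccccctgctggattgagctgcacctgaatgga
SMAD3, A_73_P304921: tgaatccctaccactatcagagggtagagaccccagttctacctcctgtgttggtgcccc
BMP7, A_73_111149: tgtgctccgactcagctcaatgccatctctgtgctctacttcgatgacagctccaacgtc
BMP7, A_73_P074216: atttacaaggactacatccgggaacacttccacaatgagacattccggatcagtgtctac
TGFB3, A_73_P272261: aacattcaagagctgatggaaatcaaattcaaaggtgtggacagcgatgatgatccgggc
BMP4, A_73_P100521: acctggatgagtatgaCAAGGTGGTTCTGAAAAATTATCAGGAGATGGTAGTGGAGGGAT
BMP4, A_73_104846: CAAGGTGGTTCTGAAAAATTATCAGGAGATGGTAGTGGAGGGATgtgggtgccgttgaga

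The pathway was detected in bull testis, and passed the threshold, about as often as genes at large. Of the 51 genes, 40 were detected (78.4%, against 76.3% of all gene names), 37 of them in both pools and 3 in the Zebu pool only. Of all 24758 detected gene names, 1231 were well above background in the Zebu pool only and 699 in the crossbred pool only. ACVR1C and SMAD3 were higher in crossbred testis and LTBP3 and GDF10 were lower, so that 2 of 40 detected members were higher, where 6.72% of all detected gene names were, and 2 of 40 were lower, where 2.09% of all were. The LTBP3 value came from a spot in a patch of dim spots on the crossbred array, described below, and without the spots of that patch 1 member was lower. Below 0 lay 25 of the 40 members, a share of 62.5% against 52.8% of all 24758 detected gene names. The median difference was -0.37 over the members and -0.05 over all detected gene names. The difference was smaller than the SD of a difference between spots in 10 of the 37 members measured on both arrays. Over all detected gene names, bounds included, the 33rd percentile of the difference was -0.35 and the 70th was 0.33.

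**Figure D1:**
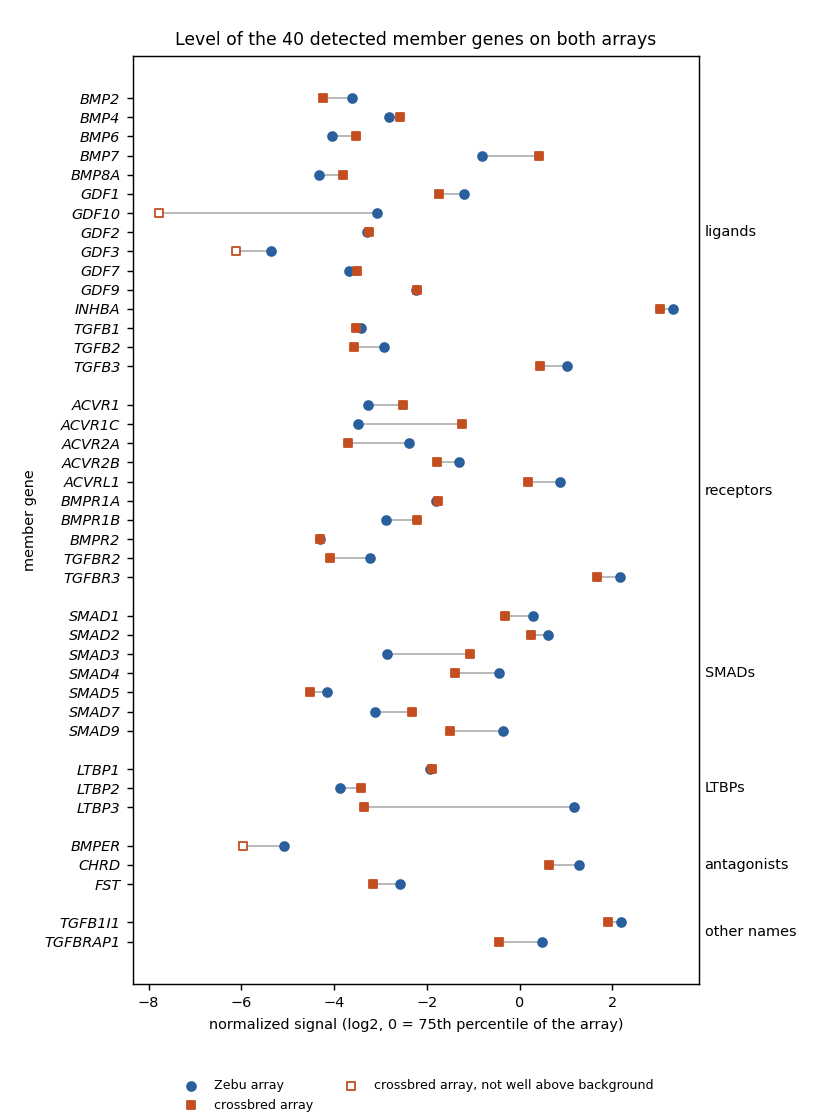
Normalized log2 signal (horizontal axis, 0 is the 75th percentile of the array) of the 40 detected member genes on the crossbred array (squares) and the Zebu array (circles), by role, each from 1 probe and without replicates. Open squares mark the 3 genes whose crossbred signal was not well above background, and the widest gaps are those of GDF10, LTBP3, ACVR1C and SMAD3.

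Among the ligands, 15 of 21 were detected, with a median difference of -0.10, and the only one past the threshold was GDF10, a BMP3-related growth factor. GDF10 was at -3.07 on the Zebu array, while its crossbred signal of -7.78 was not well above background. By the processed signal it was at least 6.54-fold lower in crossbred testis, a bound of -2.71 on the log2 scale. With normexp background correction (offset 50, here and below) and quantile normalization the bound was -1.24, which is not past the threshold. The offset is added to every signal and makes log2 differences of dim spots smaller. With quantile normalization alone the bound of GDF10 was -2.66. Its other probe, which lies nearer the 5′ end of the transcript, was not well above background on either array, so the fall of GDF10 rests on 1 spot per array. The 18 spots nearest to that spot had a median difference of 0.09.

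None of the TGF-beta ligands themselves reached the threshold. TGFB1, a growth and immune regulator made by many cell types, was at -3.52 on the crossbred and -3.42 on the Zebu array. TGFB2 was at -3.57 and -2.92, a difference of -0.65. TGFB3 was read at 0.44 and 1.02, and its probes did not give the same direction. Around the spot read, the 18 nearest spots had a median difference of -0.44. The TGFB3 probe with the highest signal and a second probe differed by -0.58 and -0.46, whereas the probe printed above, nearer the 5′ end, differed by 1.14, with -4.37 on the crossbred and -5.51 on the Zebu array. The ends of that probe lie 2658 bases apart on chromosome 10, from 89833030 to 89835687. Its 60 bases therefore do not form an unbroken stretch of the genome. INHBA, the subunit of activin A and of inhibin A, was among the members above the 75th percentile on both arrays, at 3.04 on the crossbred and 3.31 on the Zebu array. Its difference was -0.27, and that of a second probe nearer the 5′ end was -0.95.

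Of the BMPs, BMP7, a ligand known from kidney and bone development, had the highest difference, although it stayed below the threshold and is singled out here after its values were seen. BMP7 was at 0.41 on the crossbred and -0.82 on the Zebu array by its brightest probe, printed above, and at -0.22 and -1.51 by the probe nearest the 3′ end. These probes differed by 1.23 and 1.28, and the BMP7 probe printed second differed by 0.41. The BMP7 probe nearest the 5′ end passed background in the Zebu pool only, with a bound of -0.26. That bound is smaller than the SD between spots, and the BMP7 probes measured on both arrays were all above 0 but differed in size. BMP4, which patterns many embryonic tissues, had differences of 0.22 and 0.35 from the overlapping probes printed above. These differ from each other by 0.13, less than the SD between spots. The remaining detected ligands lay between -0.62 for BMP2 and 0.53 for BMP6. BMP3, BMP10, BMP15, GDF5, GDF6 and GDF15 were not well above background on either array by the probe read, which gives no fold, and GDF3 passed background in the Zebu pool only with a bound of -0.43.

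The receptors held the highest value of the whole pathway. ACVR1C, the type I receptor also called ALK7 that binds activins and nodal, was at -1.24 on the crossbred and -3.49 on the Zebu array. Its difference of 2.25 is 4.75-fold, and it rests on 1 probe with 1 spot per array. Its 18 nearest spots had -0.15 as their median, and 1 of these was higher by 1.5 or more. ACVR1, a type I receptor for BMPs and activin, was 1 of 21 members with at least 2 probes measured on both arrays, and the only one whose probes were all higher by at least 0.68, which is 2 times the SD of a difference between spots. In 0 of the 21 were all probes lower by as much. Among all gene names with at least 2 such probes, 7.95% met that rule upward and 6.61% downward. ACVR1 was at -2.51 on the crossbred and -3.26 on the Zebu array, and its differences of 0.75 and 1.14 came from probes that share 20 bases.

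No other type I receptor had all its measured probes above 0. ACVRL1, a receptor of endothelial cells, was at 0.17 on the crossbred and 0.87 in the Zebu pool, a difference of -0.70. A second ACVRL1 probe sharing 46 bases with it gave -0.81, and the remaining one, elsewhere in the transcript, gave 0.22. BMPR1A, a receptor for BMP2 and BMP4, was at -1.76 and -1.81, a difference of 0.05, while its second probe gave -1.38. That second BMPR1A spot lies 1 column outside the dark patch of the crossbred array described below, and its 18 nearest spots had a median difference of -0.58. BMPR1B, a related type I receptor, was at -2.21 and -2.87 by its brightest probe, a difference of 0.66, and its other measured probes gave -0.20 and -1.13. TGFBR1, the type I receptor of TGF-beta, and ACVR1B, the activin type I receptor, were not well above background on either array.

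The 4 type II receptors were below 0 by every detected probe. By the probe read alone, 52.8% of all detected gene names were below 0. Of gene names with 2 or more probes well above background on both arrays, 37.5% had all such probes below 0. ACVR2A, which binds activins, was at -3.71 on the crossbred and -2.37 in the Zebu pool, a difference of -1.33, and its other probes gave -0.61 and -0.30. The 18 spots nearest to the ACVR2A probe at -0.61 had a median difference of -0.51. ACVR2B, its close relative, was at -1.77 and -1.31, a difference of -0.47. TGFBR2, the type II receptor of TGF-beta, was at -4.08 and -3.22, a difference of -0.86. BMPR2, the type II receptor for BMPs, was at -4.31 and -4.30, a difference of -0.01, with -0.30 and -0.58 from its other probes. None of these reached the threshold, and the ACVR2A value of -0.30 and the BMPR2 values of -0.01 and -0.30 are under the SD between spots. With normexp background correction and quantile normalization TGFBR2 was at -0.43, ACVR2A at -0.90 and BMPR2 at 0.02, which is above 0. The mean over all its probes put ACVR2A at -0.75. TGFBR3, the co-receptor betaglycan, which also binds inhibin, was at 1.68 and 2.16, a difference of -0.48, and its other probes gave -0.19, 0.19 and 0.96. The 18 spots nearest to the TGFBR3 probe read had a median difference of -0.31.

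**Figure D2:**
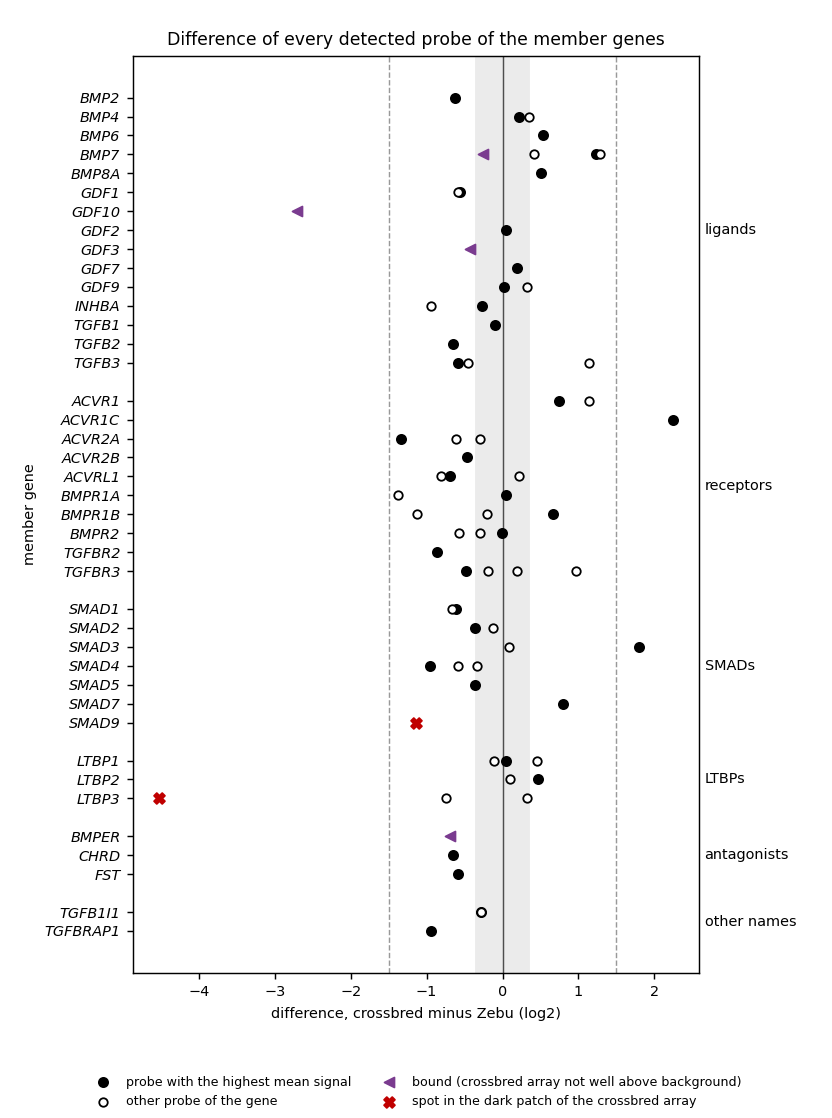
Difference, crossbred minus Zebu on the log2 scale (horizontal axis), of every detected probe of the 40 detected member genes, by role, with the probe read (filled), other probes (open), bounds (triangles) and spots in the dark patch (crosses). Dashed lines mark -1.5 and 1.5, the grey band is 1 SD of a difference between spots (0.34), and probes of SMAD3, LTBP3, TGFB3 and BMPR1B lie more than 1.5 apart.

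Of the SMADs, 7 of 8 were detected, with SMAD3 higher in crossbred testis, SMAD7 at 0.80 and 5 genes below 0. Among all detected gene names 52.8% were below 0. SMAD3, the TGF-beta and activin effector, was at -1.07 on the crossbred and -2.87 on the Zebu array by its brightest probe, a difference of 1.80 or 3.48-fold, which became 1.40, below the threshold, with normexp background correction and quantile normalization. The ends of this probe lie 2489 bases apart on chromosome 10, from 13885640 to 13888128. Its 60 bases therefore do not form an unbroken stretch of the genome. In all, 12 member genes had a probe with ends over 60 bases apart, and the only SMAD7 probe was among these. The other SMAD3 probe, printed second above, was close to background at -5.38 and -5.47 and differed by 0.08, so the rise of SMAD3 was seen by 1 of its 2 probes. Around the brightest probe none of the 18 nearest spots was past the threshold in either direction, and their median difference was 0.10.

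The partners of SMAD3 did not show its rise. SMAD2, which is phosphorylated by the same receptors, was at 0.24 on the crossbred and 0.61 on the Zebu array. Its difference was -0.37, and that of its second probe was -0.13. SMAD4, the shared partner of all receptor-regulated SMADs, was at -1.39 and -0.44, a difference of -0.95. Its other probes gave -0.59 and -0.34, so that all 3 were below 0. In the BMP branch, SMAD1 was at -0.32 and 0.29, a difference of -0.61, and a probe sharing 51 bases with it gave -0.66. SMAD5 was at -4.52 and -4.15, a difference of -0.37. SMAD9 was at -1.49 and -0.35, a difference of -1.14 from 1 spot at the edge of the dark patch, where the 18 nearest spots had a median difference of -0.67. Of the inhibitory SMADs, SMAD7, which blocks type I receptors, was at -2.32 and -3.12, a difference of 0.80 from 1 probe, and SMAD6 was not well above background on either array.

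The LTBPs, of which LTBP1 and LTBP3 tether latent TGF-beta to the extracellular matrix, gave the lowest value of the pathway. It came from a spot in a dim part of the crossbred array. LTBP3 was read at -3.36 on the crossbred and 1.17 in the Zebu pool, a difference of -4.53 between the arrays. Its spot gave a processed signal of 115 (crossbred) and 2776 (Zebu). It lies in row 86 and column 41, within a patch of dim spots on the crossbred array at rows 54 to 99 and columns 35 to 46. In this patch 34.6% of 408 spots with a value were lower by 1.5 or more, against 1.57% of 46701 spots outside both marked patches, and of the 18 spots nearest to LTBP3, 14 were. The median difference of these 18 spots was -2.73. The other LTBP3 probes lie elsewhere on the array and were at -4.06 and -3.31, a difference of -0.75, and at -2.64 and -2.96, a difference of 0.33. They do not share a direction, and both were over 3 log2 units above the difference of the spot in the patch. LTBP1 differed by 0.05 and LTBP2 by 0.47. No member spot lay in the other marked patch, where spots were bright on the crossbred array.

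**Figure D3:**
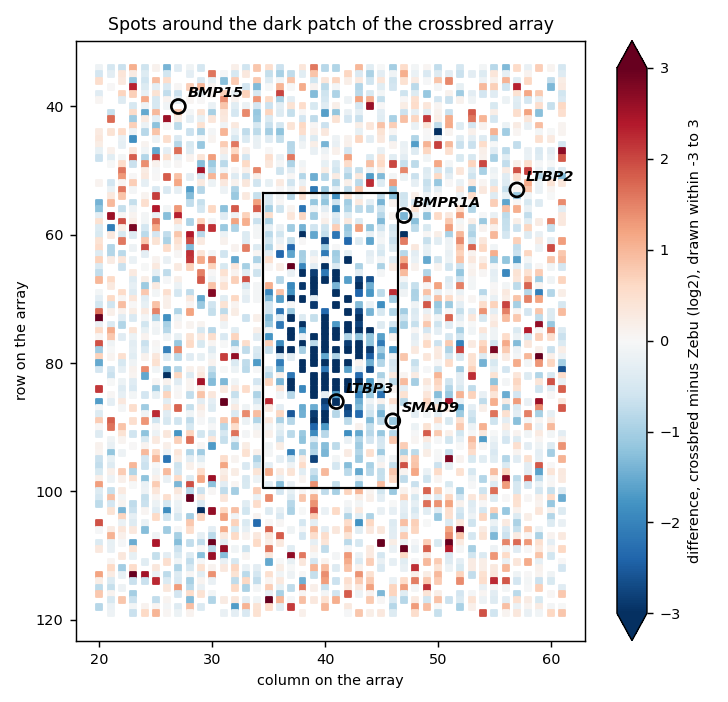
Each square is a spot at its row and column on the array, coloured by its difference, crossbred minus Zebu (log2, drawn within -3 to 3), around the dark patch of the crossbred array (box). Circles mark the member spots in view, of which LTBP3 lies within the box, SMAD9 at the edge of the box and a BMPR1A probe just outside it.

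Of the antagonists, which bind ligands outside the cell, 3 of 4 were detected, all below 0, and 1 of them only as a bound. A value below 0 was also that of 52.8% of all detected gene names. CHRD, chordin, which sequesters BMPs, was at 0.63 on the crossbred and 1.29 in the Zebu pool, a difference of -0.66. FST, follistatin, which binds activins, had 2 spots per array that lay within 0.03 of each other and was at -3.17 and -2.58, a difference of -0.59. BMPER passed background in the Zebu pool only, with a bound of -0.69, and NOG, noggin, on neither. Of the genes taken in by name alone, TGFBRAP1, a receptor-associated protein, differed by -0.94. TGFB1I1, also known as Hic-5, a focal adhesion protein, differed by -0.28 with each of its probes. BMP1, a procollagen protease and not a BMP, was not well above background on either array.

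Across the pathway, how far probes of a gene agreed can be read in 21 genes with at least 2 probes well above background on both arrays. Their probes shared a direction in 14 genes and went both ways in 7. All such probes were below 0 in 8 genes, or 38.1% of 21 against 37.5% of 8185 gene names with such probes, and above 0 in 6, or 28.6% against 29.4%. These shares are close to those of all genes. The probes lay more than 1.5 apart in 4 member genes (BMPR1B, LTBP3, SMAD3 and TGFB3), where 7.61% of all such gene names were, and in 1 of these, LTBP3, the lowest value is that of the spot in the dark patch. Overlapping probes of the same gene, in ACVR1, ACVRL1, BMP4 and SMAD1, gave differences within 0.39 of each other. Probes of a gene share the RNA pool and are not replicates.

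At a smaller size, 5 members were higher by 0.68 or more, 12.5% against 18.4% of all detected gene names, and 9 were lower by as much, 22.5% against 16.7%. By role, the median difference was -0.10 in ligands, -0.24 in receptors, -0.37 in SMADs, 0.05 in LTBPs, -0.66 in antagonists and -0.61 in the genes taken in by name alone, the last 3 from 2 or 3 genes each.

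**Figure D4:**
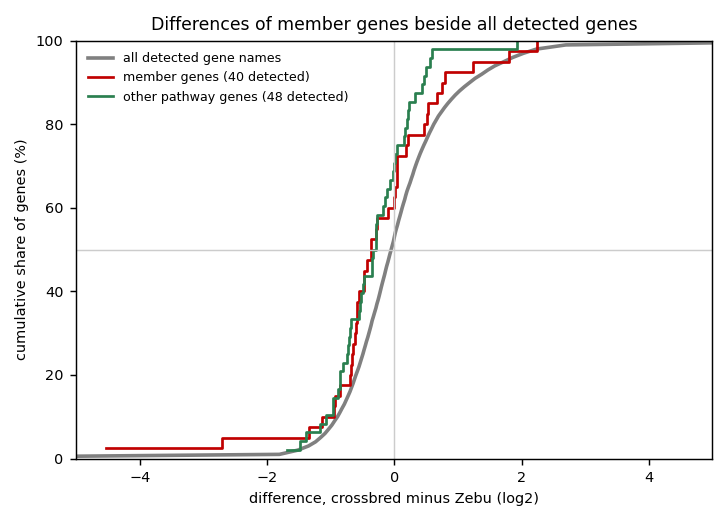
Cumulative share of genes (vertical axis, %) against the difference, crossbred minus Zebu (horizontal axis, log2), for the 40 detected members, the 48 detected other pathway genes and all detected gene names. The curves of the members (median -0.37) and of the other pathway genes (median -0.31) lie left of that of all genes (median -0.05).

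Another 55 genes of the pathway that the naming rule does not take in were on the array, and 48 were detected. Of these, 1 was higher and 1 was lower by the threshold, 2.08% each against 6.72% and 2.09% of all detected gene names, and 33 of 48 (68.8%, against 52.8% of all) were below 0. The median was -0.31. PPM1A, a phosphatase that acts on SMAD2 and SMAD3, was higher, at 3.59 on the crossbred and 1.65 in the Zebu pool, a difference of 1.94. A second PPM1A probe gave 2.05, at 0.99 on the crossbred and -1.06 on the Zebu array. The remaining PPM1A probe was bright on both, at 2.56 and 2.54, and gave 0.02. With the mean of all probes, 0 of the 48 genes were higher by the threshold. LEFTY2, an inhibitor of nodal, was lower, at -4.09 and -2.40, a difference of -1.69 from 1 probe.

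INHA, AMH and AMHR2 were lower in signal on the crossbred array by each of their detected probes, without reaching the threshold by the probe read. INHA, the alpha subunit of inhibins, was at 4.73 on the crossbred and 5.81 in the Zebu pool, a difference of -1.08, and its second, much dimmer probe gave -1.58. AMH, the hormone by which Sertoli cells make the Müllerian ducts regress, was at 1.59 and 2.98, a difference of -1.39, with -0.82 from its second probe. AMHR2, its type II receptor, was at -2.89 and -1.72, a difference of -1.17, with -1.06 from its second probe. INHBB, the subunit of activin B and inhibin B, was not well above background on either array.

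Markers of cell types moved between the pools as well, and in bulk tissue fewer cells of a type and less RNA per cell cannot be told apart. Over 31 detected markers of Sertoli, Leydig, peritubular, fibroblast, endothelial and macrophage cells, the median difference was -0.58, and 25 were below 0. Over all detected gene names the median was -0.05, and 52.8% were below 0. All 6 detected Sertoli markers were below 0, with a median of -0.74 and a summed signal of 124 on the crossbred and 177 on the Zebu array in units of the 75th percentile. All 6 Leydig markers (median -0.79, summed signal 87.8 and 133), all 5 peritubular markers (median -0.77, summed 29.3 and 51.6) and all 6 fibroblast markers (median -0.97, summed 14.8 and 29.9) were below 0 too. Endothelial and macrophage markers had medians of 0.21 and 0.10. All 4 spermatogonial markers were below 0, with a median of -0.80. All 6 spermatid markers were above 0, with a median of 1.31 and a summed signal of 474 and 264, and the 3 spermatocyte markers had a median of 0.84. DCN is both a fibroblast marker and 1 of the other pathway genes. The part of these markers in the differences of the pathway genes was not tested.

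**Figure D5:**
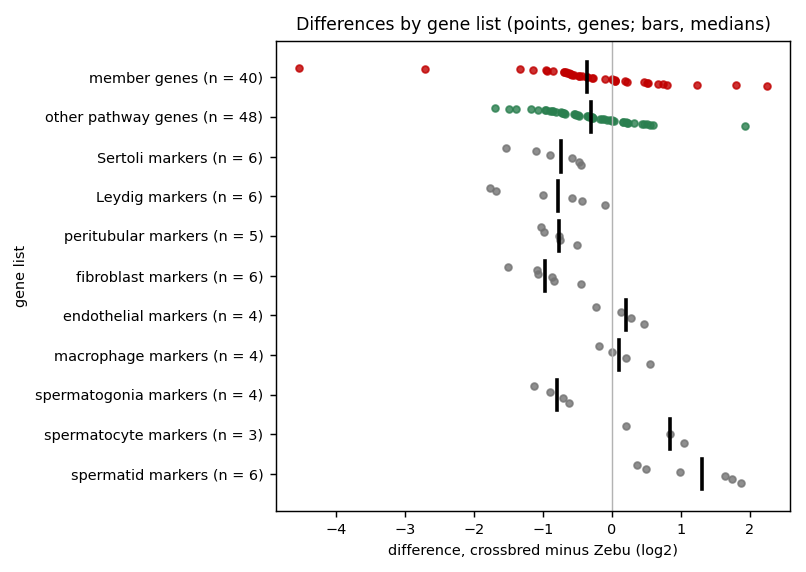
Difference, crossbred minus Zebu (horizontal axis, log2), of each detected gene (points) of the members, the other pathway genes and the marker lists, with the median of each list (bars) and the number of detected genes in brackets. The medians of the members (-0.37) and other pathway genes (-0.31) lie between those of the Sertoli (-0.74) and the spermatid markers (1.31).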

How the data were processed

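The testis RNA pool of each group was measured on 1 array with the dye Cy3. The authors deposited for each spot the intensity extracted by Agilent Feature Extraction 11.5.1.1, as a processed signal that was background-subtracted but not normalized between arrays, with the mean signal and the local background. The authors also deposited log2 values shifted to the 75th percentile of each array. Of the deposited log2 differences between arrays, 98.1% lay within 0.02 of those computed here, and their medians per array were -3.00 and -3.01.

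Control spots and 13 outlier spots, none of a member, were removed; saturation was marked nowhere. The 75th percentiles were 1176 (crossbred) and 1233 (Zebu) in signal. Where only 1 array was well above background, the other was set to its own value or to the lowest value well above background (-5.78 crossbred, -5.94 Zebu), whichever was higher, and the result is a bound. A bound in the wrong direction entered as 0.

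Full values are given for members past 1.5 by any probe, with a spot in a marked patch or with all probes at 0.68 or more in the same direction, and for receptors, SMADs, TGFB1 to TGFB3 and INHBA. Other members with values were chosen after these were seen. Of other lists, genes past 1.5 and INHA, INHBB, AMH and AMHR2 are named, and some genes of these lists are not reported here. Members, lists and rules were chosen with earlier results of these data known. Red blood cell and epididymis markers gave 1 of 3 and 2 of 3 detected, with medians of -2.15 and 1.93.

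The steps were tested on simulated data. Python 3.11.15 with numpy 2.4.6, pandas 2.3.3, scipy 1.17.1 and matplotlib 3.10.9 and limma 3.58.1 in R 4.3.3 were run. Coordinates are those of the array annotation.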

Additional observations from a re-analysis of the deposited data

How the results depend on the processing

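No paired analysis was possible because each group had 1 array, and no array could be left out. The count of 4 members past the threshold became 2 with normexp background correction (offset 50) and quantile normalization. These took SMAD3 to 1.40 and the bound of GDF10 to -1.24. At a threshold of 1 the count was 7 of 40. Without the spots in the marked patches it was 3, and LTBP3, then read from another probe, turned from -4.53 to 0.32, while SMAD9 had no value. The count of 2 of 48 other pathway genes became 1 with the mean of all probes, 6 at a threshold of 1 and 0 at a threshold of 2. It was 3 with quantile normalization or with the 75th percentile over probes well above background. Over every detected probe, 4 of 96 probes passed. Over all detected gene names, the 7th percentile of the difference was -1.04 and the 88th was 1.03, and the 1st was -1.81 and the 97th was 2.03. The median difference over members of -0.37 became -0.21 with normexp, -0.29 without the patch spots, -0.28 over members measured on both arrays and -0.28 over every detected probe, and stayed below 0 in each. The cause was not tested. With the mean of all probes SMAD3 was at 0.94 and LTBP3 at -1.65, and BMPR1A (-0.67), BMPR1B (-0.22) and TGFB3 (0.03) changed sign, as did BMPR2 (0.02) with normexp. Of 22 members with full values, 7 moved by over 0.34 with normexp, SMAD4 to -0.52 among them, and 6 with the mean of all probes. Without the patch spots 20 of 21 members with full values stayed within 0.34 of their value, and under a median shift, a percentile over probes well above background, quantile normalization or the authors' log2 values all 22 did. The spots of dim probes, 25 of 98 here, limit what can be read, and no alternative stands in for a second pool.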

Other observations

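Genes known to be switched on by the pathway were looked at one probe at a time, and those named here were chosen after their values were seen. All 8 target genes on the list were detected, with a median difference of -0.52 and 6 of them below 0, where 52.8% of all detected gene names were. The ID genes, direct targets of BMP signalling, went both ways. ID1 was at 1.95 in the crossbred and 1.51 in the Zebu pool, a difference of 0.44, with 0.33 from its second probe. ID2 was at -1.55 and -0.66, a difference of -0.89, with -0.97 and -0.61 from its other probes. Each of these genes held its direction over its probes, and none reached 1.5. CTGF, a TGF-beta target, gave -0.68 by its brightest probe, while its second probe was higher on the crossbred array, at -1.75 against -2.85.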
